A study of Cricetulus griseus with 19 samples.

Results

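The cultures described are the 7 libraries labelled Negative feedback among 19 RNA-seq libraries of Paradaux cells, and the way they divided into a set of 5 (replicates 3 to 7) and a set of 2 (replicates 1 and 2). The sets were chosen by the first principal component of the estimated counts themselves, and no label separates them. Every difference between the sets is therefore a description of the values that chose them, and no test of it is given. Paradaux derives from CHO-K1, a line from the ovary of the Chinese hamster, and per the labels the series holds 1 parental library, 4 of uncontrolled growth, 7 under negative feedback and 7 under paradoxical feedback. All cells were grown for 2 days below 80% confluence, RNA was purified on Qiagen columns and its polyadenylated part was made into libraries by the NEBNext Ultra II protocol. The parental and uncontrolled libraries served as the cultures without a feedback label, and no separate treatment, dose or age is stated for any of the groups. A vector insert named vYM133_linearized_insertion gave counts in all 19 libraries, the parental one included, so the 4 groups share it. Whether the line is 1 clone, and whether the numbered cultures were kept apart throughout, is not stated, so p-values below measure the spread between these libraries, part of which may be technical.

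A negative feedback circuit lets a signal that the cells make themselves reduce their own number, whereas a paradoxical circuit lets the same signal act on both growth and death. Much of what follows concerns the endoplasmic reticulum (ER), where secreted and surface proteins fold with the help of chaperones and receive sugar chains that the Golgi apparatus then extends. When unfolded proteins build up there, the unfolded protein response raises chaperone genes, and it can turn to cell death if the load lasts. Other results concern the genes that license and start DNA replication, which dividing cells raise as they leave G1.

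Values are CPM, estimated counts scaled to a common library total by TMM. A difference between the sets is the mean log2 CPM of cultures 3 to 7 minus that of cultures 1 and 2, with a prior count of 2, and folds are taken from it. A transcript target was counted as split where no culture of 1 set overlapped the other set and the difference was at least 1 on the log2 scale, a 2-fold change. Library totals were 10.7 to 13.2 M estimated counts in cultures 3 to 7 and 9.91 and 11.3 M in cultures 1 and 2, so the depths of the sets overlapped. Only 1 of 12 markers of leukocytes, fibroblasts and granulosa cells carried a name in the files and passed the filter (Pdgfra, with shared reads), so the cell type could not be checked. In bulk RNA a smaller share of cells in a state and less RNA per cell cannot be told apart.

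On the first component (33.2% of the variance among the 19 libraries), cultures 3, 4, 5 and 6 scored 204.9, 220.7, 216.9 and 220.3, and culture 7 scored 158.4. Cultures 1 and 2 scored -160.6 and -140.8. Culture 7 was thus the nearest of its set to the boundary and culture 2 the nearest of the other. The uncontrolled libraries scored -168.9 to -121.6, a range that holds both cultures 1 and 2. The parental library scored -84.2 and the paradoxical libraries -79.7 to 37.95, between the sets. Short targets moved with the same axis: those shorter than 800 nt made up 6.12 to 7.22% of the counts of cultures 3 to 7, against 14.1 and 13.3% in cultures 1 and 2. The share was 12.2 to 13.4% in uncontrolled libraries, 11.8% in the parental library and 8.50 to 12.4% in paradoxical ones. Its part in the differences between the sets was not tested. For paradoxical against uncontrolled libraries, a fit with this share as a covariate is given below.

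**Figure D1:**
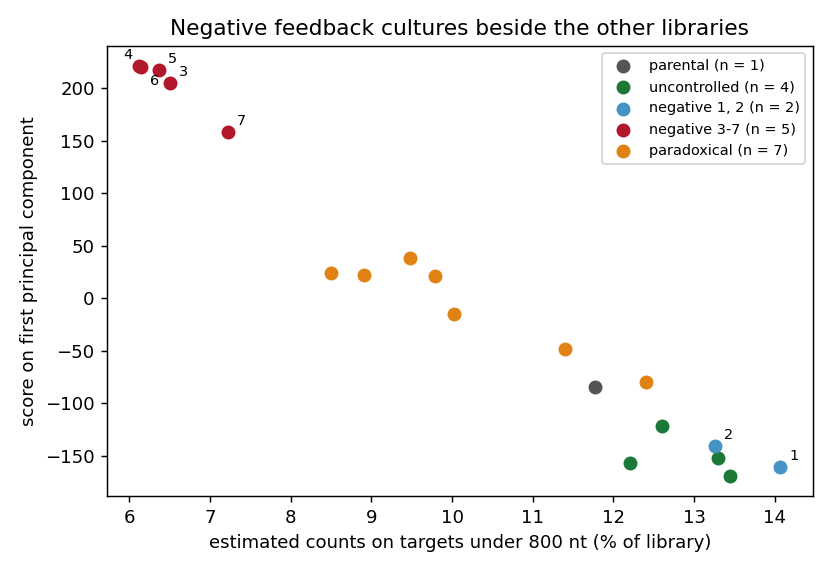
Score on the first principal component (vertical axis, no unit) against the percent of estimated counts on targets under 800 nt (horizontal axis), 1 point per library, with negative feedback cultures numbered. Cultures 3 to 7 sit alone at 6.12 to 7.22% and above 158. Cultures 1 and 2 score within the range of the 4 uncontrolled libraries. On the horizontal axis culture 1 sits at 14.1%, past the highest uncontrolled library (13.4%).

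The distance between 2 libraries was taken as the root of the mean squared log2 CPM difference over 28555 targets. Within cultures 3 to 7 it was 1.63 to 1.74 over 10 pairs, and cultures 1 and 2 were 1.67 apart. Between the sets it was 2.38 to 2.70. Cultures 1 and 2 lay 1.62 to 1.70 from the uncontrolled libraries, close to the distances of uncontrolled libraries among themselves (1.61 to 1.70). Cultures 3 to 7 lay 2.29 to 2.74 from the uncontrolled libraries and 2.15 to 2.40 from the parental one. Culture 7 was 2.41 from cultures 1 and 2 on average, whereas cultures 3 to 6 were 2.61 to 2.66 away. Culture 7 also had the lowest value of its set in 42.9% of the targets that were higher in cultures 3 to 7, and the highest in 35.4% of those that were lower.

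Of 28555 targets tested, 5172 (18.1%) were higher in cultures 3 to 7 and 5557 (19.5%) were lower by the split rule. With log2 TPM in place of log2 CPM the counts were 6381 and 2576. Past 4-fold, 3050 were higher and 2708 lower. The uncontrolled libraries all lay below all of cultures 3 to 7 in 4400 of the 5172 higher targets (85.1%), and the parental library did so in 90.1%. Of the 5557 lower targets, the uncontrolled libraries all lay above cultures 3 to 7 in 75.3% and the parental library in 81.6%. The rule is easier to meet for 1 library than for 4, and its share over all 28555 targets was not computed. By mean, the uncontrolled libraries lay nearer cultures 1 and 2 than cultures 3 to 7 in 92.4% of the higher and 90.9% of the lower targets. For the parental library these shares were 72.9% and 77.7%. They too cover only targets chosen for a gap between the sets, and the share over all 28555 targets was not computed. On a scale where cultures 1 and 2 are 0 and cultures 3 to 7 are 1, the median over the higher targets was 0 to 0.133 in the 4 uncontrolled libraries, 0.285 in the parental library and 0.319 to 0.673 in the 7 paradoxical ones. Over the lower targets the parental library stood at 0.243 and the paradoxical libraries at 0.388 to 0.634.

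The kind and length of a transcript went with its direction. The median difference was -0.94 for targets under 500 nt and rose with each length class to 0.61 for those of 6000 nt or more. Predicted noncoding targets were lower more often than higher (1111 against 203 of 3268), and their median was -0.74. Predicted coding targets had a median of 0.14 (4861 higher and 4411 lower of 24999). At a like length of 2000 to 4000 nt, the medians were still -0.59 for noncoding and 0.25 for coding targets. The noncoding targets as a whole took 1.53 to 1.68% of the counts in cultures 3 to 7 and 3.25 and 3.26% in cultures 1 and 2. Uncontrolled libraries had 3.21 to 3.52% and the parental library 2.60%.

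**Figure D2:**
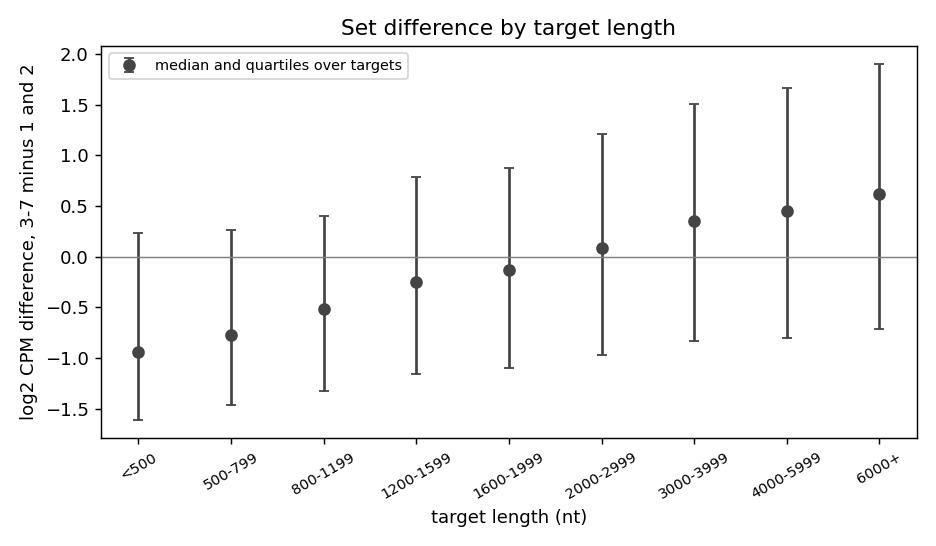
Difference of mean log2 CPM, cultures 3 to 7 minus cultures 1 and 2 (vertical axis), for 9 classes of target length in nt (horizontal axis), where points are medians over targets and bars their quartiles. The median climbs from -0.94 under 500 nt to 0.61 at 6000 nt or more, and the quartiles straddle 0 in every class.

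A gene symbol could be given to 333 coding targets, of which 283 passed the filter on low counts, and the genes below come from these. Of the 283, 107 (37.8%) were higher in cultures 3 to 7 and 34 (12.0%) lower, with a median difference of 0.50 against 0.04 over all targets. Of the 283, 22 had no count in cultures 1 and 2, and 6 of these were among the higher ones, so counts over a list hold for its tested members alone. The named targets differ from the rest in how their sequences are recorded. The 132 with a length divisible by 3, which a record of coding sequence alone would have, had a median of 1.04, and the other 151 had 0.27. Between 800 and 2000 nt these medians were 1.28 and 0.03. Among the named genes whose counts were whole in all libraries, 7 of the 10 highest differences and 3 of the 10 lowest belonged to targets of such a length. The part of record type and length in the differences was not tested. Genes said to have shared reads are those whose reads the quantifier divided among similar transcripts, which adds an error the files do not show.

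Several genes of ER folding and of protein export from the ER were lower in cultures 3 to 7. Hspa5 stood at 1796, 1768, 1840, 1849 and 1896 CPM in cultures 3 to 7, against 11872 and 11149 CPM in cultures 1 and 2, 4868 to 11184 CPM across the 4 uncontrolled libraries and 3718 CPM in the parental one. Hspa5 encodes BiP, the main chaperone of the ER lumen and the best known target of the unfolded protein response. The 5 cultures lay within 1768 to 1896 CPM, below the lowest uncontrolled and parental values, and were 6.29-fold under cultures 1 and 2 (log2 difference -2.65). Cultures 1 and 2 stood with uncontrolled libraries 1 and 2 (11184 and 10267 CPM), while uncontrolled libraries 3 and 4 stood at 5290 and 4868. Creld2 stood at 96.04, 100.4, 93.05, 108 and 119.8 CPM in cultures 3 to 7, against 669 and 400.2 CPM in cultures 1 and 2, 299 to 698 CPM across the 4 uncontrolled libraries and 230.1 CPM in the parental one. Creld2, an ER-resident protein that cells raise under ER stress, showed the same order, with a difference of -2.33.

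Of the selenoproteins in the ER membrane, Selenos and Selenok were lower, Selenoi was higher (1.09, shared reads) and Selenot stood higher by less than 2-fold (0.57, shared reads). Selenos stood at 26.2, 22.3, 25.2, 21.2 and 26.5 CPM in cultures 3 to 7, against 217 and 150.2 CPM in cultures 1 and 2, 102 to 192 CPM across the 4 uncontrolled libraries and 71.1 CPM in the parental one. Selenos takes part in the removal of misfolded proteins from the ER, and its difference of -2.89 was the lowest among named genes with whole counts. Selenok stood at 57.2, 53.6, 48.5, 46.4 and 54.95 CPM in cultures 3 to 7, against 262 and 179 CPM in cultures 1 and 2, 82.96 to 230 CPM across the 4 uncontrolled libraries and 133 CPM in the parental one. Selenok, a partner of Selenos in the same pathway, differed by -2.06, and uncontrolled library 3 (83.0 CPM) lay closest to cultures 3 to 7. Selenom, a selenoprotein of the ER lumen, stood at 24.3, 26.4, 23.6, 29.4 and 29.6 CPM in cultures 3 to 7 and at 97.9 and 78.7 CPM in cultures 1 and 2, a difference of -1.72. Of 14 selenoproteins tested, in a list put together after the names were seen, 3 were lower (21.4%), 2 were higher (14.3%) and the median difference was 0.21, against 12.0%, 37.8% and 0.50 over all named targets. Gpx1, the cytosolic glutathione peroxidase that removes peroxides, was one of the higher ones, at 316, 417, 370.3, 374 and 397 CPM against 79.3 and 123 CPM.

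Other members of the unfolded protein response differed in both directions or did not separate. Edem1, which marks misfolded glycoproteins for degradation, stood at 38.1, 49.2, 40.9, 43.6 and 24.3 CPM in cultures 3 to 7 and at 1.78 and 1.65 CPM in cultures 1 and 2, where it had 37 counts in all. Its 20.3-fold difference (log2 4.34) went with uncontrolled values of 1.11 to 2.79 CPM and 3.27 CPM in the parental library. Hyou1, a large ER chaperone that works with BiP, had shared reads and stood at 558, 628, 549.6, 634 and 538 CPM against 296 and 230.5 CPM. Atf4, the transcription factor translated when eIF2 alpha is phosphorylated, also had shared reads and stood at 24.8, 21.7, 30.2, 34.7 and 46.2 CPM against 502 and 396 CPM, with 355 to 494 CPM in uncontrolled libraries. Mbtps2, the protease that releases Atf6 and transcription factors such as Srebf2 from the Golgi membrane, had 5 counts in cultures 1 and 2 together and 5.17, 9.18, 9.903, 4.82 and 2.43 CPM in cultures 3 to 7 (shared reads). The lumenal folding proteins Calr and P4hb overlapped between the sets, with differences of -0.29 and -0.11. Over the list, 13 targets of 12 symbols were tested, 4 were lower (30.8%) and 3 higher (23.1%), and the median difference was -0.11. Of all named targets 12.0% were lower and 37.8% higher. The members therefore did not share a direction.

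**Figure D3:**
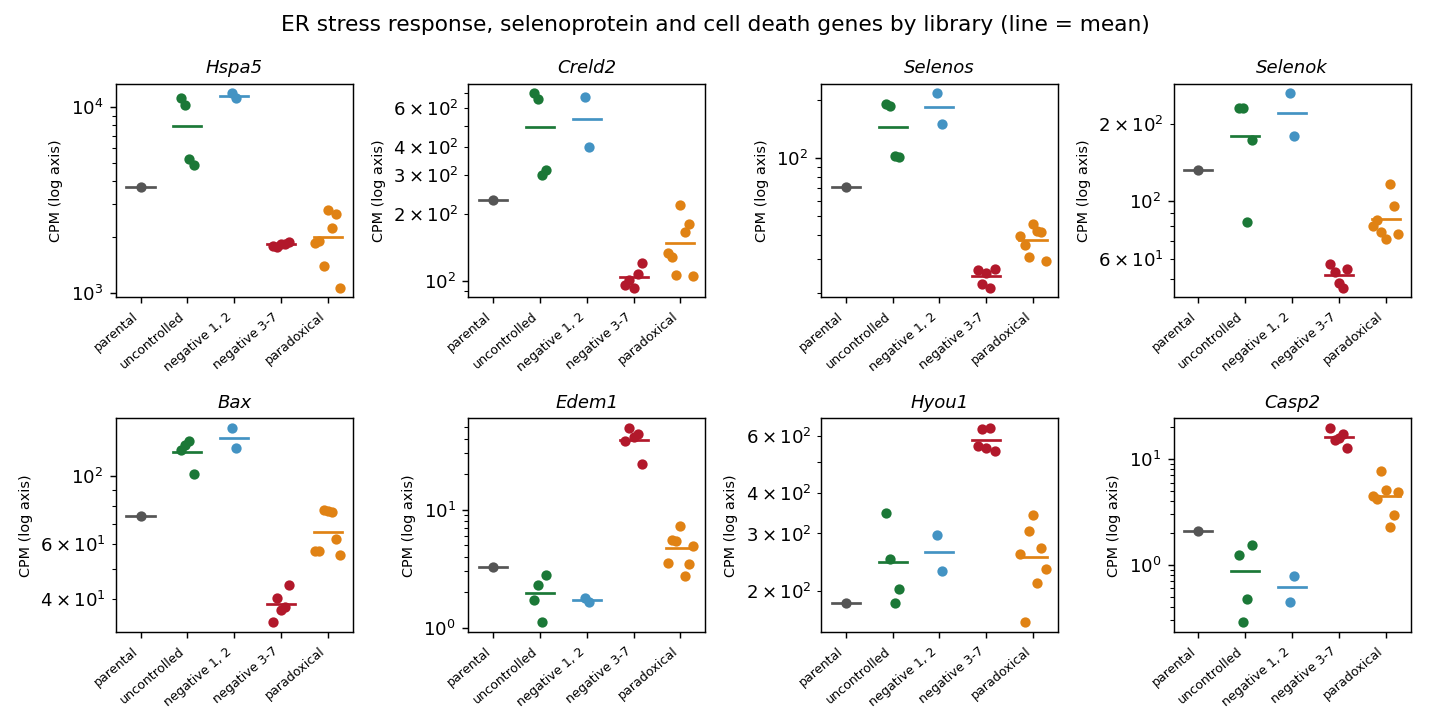
CPM on a log axis in each of 19 libraries for 8 genes of the ER stress response, ER selenoproteins and cell death, with points for libraries and a line at each set's mean. Hspa5, Creld2, Selenos, Selenok and Bax sit lowest in negative feedback cultures 3 to 7 or level with paradoxical libraries, and Edem1, Hyou1 and Casp2 sit highest there, with no uncontrolled or parental library reaching the 5 cultures.

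Most of the tested genes listed for G1/S and replication licensing were higher in cultures 3 to 7. Of the 7 tested, 6 were higher (85.7%) and none lower, and the median difference was 2.30, against 37.8%, 12.0% and 0.50 over all named targets. Of these 7, 5 have a length divisible by 3 and 1 had no count in cultures 1 and 2. Among all named targets of such a length between 800 and 2000 nt, 48.2% were higher, with a median of 1.28. Cdk2 stood at 60.5, 61.05, 54.4, 55.7 and 51.9 CPM in cultures 3 to 7, against 6.61 and 8.18 CPM in cultures 1 and 2, 6.07 to 9.05 CPM across the 4 uncontrolled libraries and 20.3 CPM in the parental one. Cdk2 is the kinase that cyclins E and A activate at the start of S phase, and the 5 cultures exceeded the highest uncontrolled library by a wide gap (log2 difference from cultures 1 and 2 of 2.92). Cdt1 stood at 50.3, 36.9, 41.7, 38.4 and 37.9 CPM in cultures 3 to 7, against 5.89 and 11.2 CPM in cultures 1 and 2, 6.497 to 14.2 CPM across the 4 uncontrolled libraries and 19.9 CPM in the parental one. Cdt1 loads the replicative helicase onto origins, and its difference was 2.30. Cdc25a stood at 52.8, 27.2, 31.4, 22.3 and 18.03 CPM in cultures 3 to 7, against 1.87 and 2.43 CPM in cultures 1 and 2, 1.48 to 5.58 CPM across the 4 uncontrolled libraries and 4.45 CPM in the parental one. Cdc25a, the phosphatase that activates Cdk2, differed by 3.63 and varied within the set, with culture 3 highest and culture 7 lowest. It is not among the 7 listed genes. Pcna, the sliding clamp of the replication fork, stood at 264, 216, 217, 190.1 and 205 CPM against 75.6 and 95.1 CPM, and uncontrolled library 3 reached 115 CPM. Ccnd1 (cyclin D1, shared reads) had 10 counts in cultures 1 and 2 together and 14.8, 18.4, 18.2, 20.6 and 13.3 CPM in cultures 3 to 7.

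Among the mitotic genes, Top2a, the topoisomerase that untangles chromosomes, stood at 1399, 1236, 1117, 1160 and 951 CPM in cultures 3 to 7, against 343 and 297 CPM in cultures 1 and 2 and 270.4 to 464 CPM across uncontrolled libraries. Cdc25b, which activates Cdk1 before mitosis, stood at 80.95, 65.2, 64.3, 60.02 and 56.7 CPM against 13.03 and 14.9 CPM, with no uncontrolled library above 14.96 CPM. Kif23, a motor of the central spindle, stood apart by less than 2-fold (147, 96.9, 105, 88.5 and 93.7 CPM against 68.8 and 70.1 CPM). In both Top2a and Cdc25b, culture 7 was the lowest of its set and culture 3 the highest. A list of 9 genes, Cdc25a and genes of replication origins, was put together after the names were seen. In it 4 were higher (44.4%) and 2 lower (22.2%) with a median of 0.09, against 37.8%, 12.0% and 0.50 over all named targets. The higher ones were Cdc25a, Dbf4, Cdt1 and Orc1, of which Cdt1 and Orc1 are also in the G1/S list. Orc2 and Orc4, subunits of the origin recognition complex with shared reads, were the lower ones (-1.55 and -1.30). Cdc7, Cdc45 and Orc5 overlapped between the sets.

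Cytosolic chaperones stood higher, unlike BiP. Hspa8 stood at 2885, 2766, 3366, 2576 and 2487 CPM in cultures 3 to 7, against 1220 and 1023 CPM in cultures 1 and 2, 885 to 1875 CPM across the 4 uncontrolled libraries and 1923 CPM in the parental one. Hspa8 is the constitutive Hsp70 of the cytosol, and its 2.51-fold difference left cultures 3 to 7 above every uncontrolled library and the parental one. Hsph1, a nucleotide exchange factor for Hsp70, stood at 309, 271, 298, 266 and 264 CPM against 89.1 and 93.7 CPM (log2 1.62). Hsp90aa1, the inducible Hsp90, stood at 1523, 1273, 1553, 1170 and 1107 CPM against 553 and 522 CPM (log2 1.29). Of the 5 cytosolic chaperones tested, these 3 were higher by the rule, none was lower and the median difference was 1.29. Over all named targets 37.8% were higher, 12.0% were lower and the median was 0.50.

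**Figure D4:**
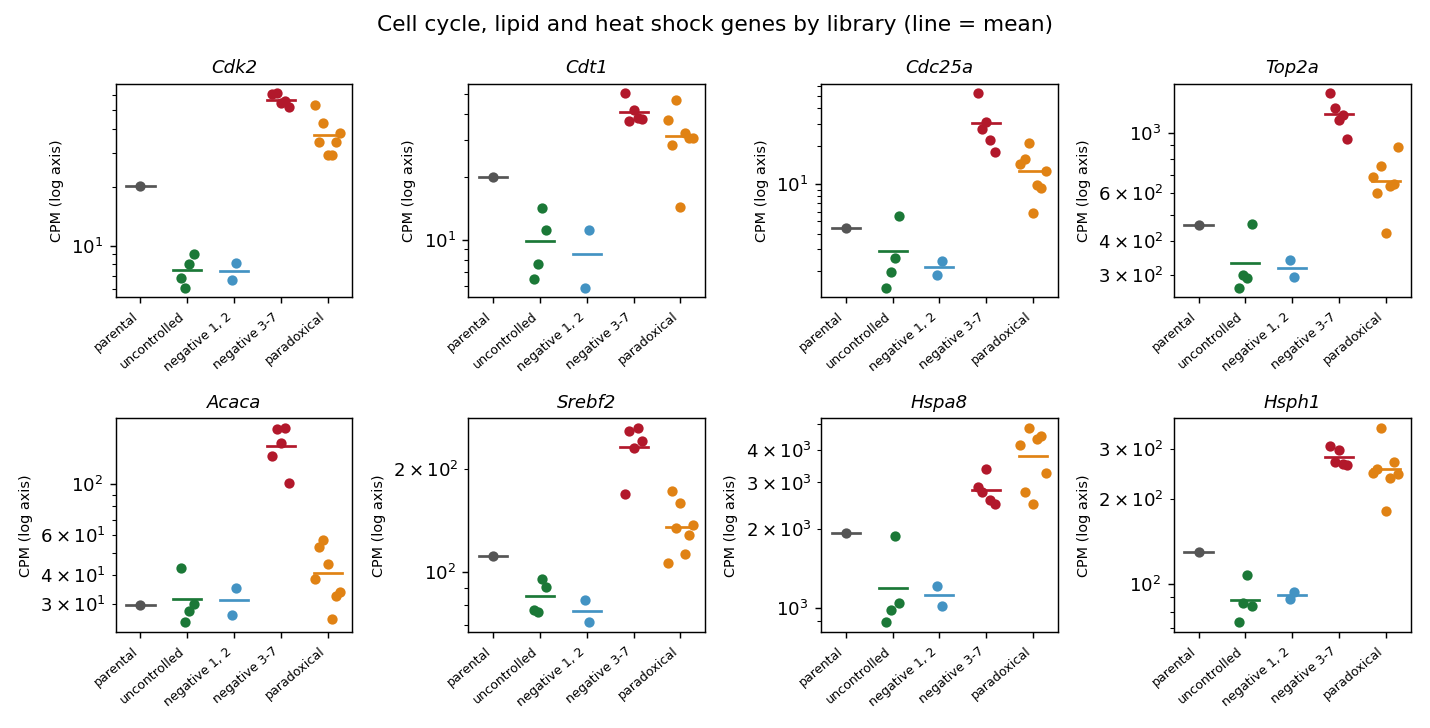
CPM on a log axis in each of 19 libraries for 4 cell cycle genes, 2 lipid genes and 2 chaperones, with points for libraries and a line at each set's mean. In all 8 panels negative feedback cultures 3 to 7 lie above the uncontrolled, parental and negative feedback 1 and 2 libraries, while the paradoxical median lies between those of the 2 sets, except for Hspa8, where it is higher than both (4174 CPM).

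Cell death genes differed in both directions. Bax, which permeabilises mitochondria during apoptosis, stood at 33.5, 40.3, 36.8, 37.5 and 44.4 CPM in cultures 3 to 7, against 143 and 124 CPM in cultures 1 and 2, 102 to 130.5 CPM across uncontrolled libraries and 74.2 CPM in the parental one, a difference of -1.79. Casp2, an initiator caspase, stood at 19.7, 15.1, 15.9, 17.4 and 12.9 CPM in cultures 3 to 7 and at 0.446 and 0.778 CPM in cultures 1 and 2, where it had 13 counts. Xiap, which inhibits caspases, stood at 7.88, 10.1, 8.102, 8.63 and 3.68 CPM against 1.07 and 0.876 CPM, and culture 7 was the lowest of its set. Casp9, the caspase that the apoptosome activates, had shared reads and was lower (0.678, 2.24, 1.64, 1.58 and 2.04 CPM against 4.195 and 3.601 CPM). Of 8 tested genes of apoptosis, 3 were higher (37.5%) and 2 lower (25%), against 37.8% and 12.0% of all named targets, and 2 of the 8 had no count in cultures 1 and 2. Bax had the lowest difference of the list.

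Genes of the Golgi and of sugar chain synthesis held several of the largest differences. Of 17 tested glycosylation genes, 9 were higher (52.9%) and 1 lower, against 37.8% and 12.0% of all named targets. Since 4 of the 17 had no count in cultures 1 and 2, nothing is read from this share. B4galt5, a galactosyltransferase that starts lactosylceramide synthesis, stood at 15.1, 15.1, 15.8, 16.1 and 13.01 CPM in cultures 3 to 7 and at 0.982 and 0.973 CPM in cultures 1 and 2, with 0.474 to 2.71 CPM in uncontrolled libraries. B4galt1, which galactosylates N-glycans, stood at 10.2, 11.3, 11.2, 11.04 and 7.68 CPM against 0.625 and 0.973 CPM. These genes belong to a family of similar sequences and had 21 and 17 counts in cultures 1 and 2, so their exact folds (13.2 and 10.9) are uncertain. Slc35a3, the Golgi transporter of UDP-GlcNAc (shared reads), was at 0 in cultures 1 and 2, in all 4 uncontrolled libraries and in the parental one, and stood at 8.65, 15.4, 9.25, 13.3 and 4.94 CPM in cultures 3 to 7, at least 35.2-fold higher than cultures 1 and 2 taken at a floor of 3 counts per library. It could pass the filter on low counts only through libraries where it was present. That floor does not cover the error from dividing shared reads.

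Glg1, a large glycoprotein of the Golgi membrane, combined a wide difference with more counts. It stood at 138, 172, 155, 181 and 109 CPM in cultures 3 to 7, against 7.32 and 7.49 CPM in cultures 1 and 2, 5.02 to 9.89 CPM across uncontrolled libraries and 14.9 CPM in the parental one (19.6-fold, log2 4.29). Ugcg, which makes glucosylceramide, the first step towards complex glycosphingolipids, stood at 30.01, 33.4, 29.6, 35.7 and 22.2 CPM against 1.43 and 1.65 CPM, with 1.15 to 5.495 CPM in uncontrolled libraries. In both genes the uncontrolled libraries lay with cultures 1 and 2 and culture 7 was the lowest of its set. Sdc1, a cell surface heparan sulfate proteoglycan, stood at 83.4, 94.5, 109, 96.02 and 88.3 CPM against 10.8 and 11.3 CPM, and its uncontrolled libraries stood at 8.81 to 16.5 CPM. Xpr1, which exports phosphate from the cell, had the largest difference among whole-count genes (log2 4.42), at 26.1, 33.6, 28.8, 30.8 and 20.1 CPM against 1.07 and 1.17 CPM. Pld1, which makes the signalling lipid phosphatidic acid, stood at 7.38, 8.64, 8.68, 8.91 and 6.35 CPM against 0.446 and 0.584 CPM, with 11 counts in cultures 1 and 2 together.

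Heterotrimeric G protein subunits relay signals from surface receptors, and 5 of 8 tested were higher and 1 lower, with a median of 2.78, against 37.8% and 12.0% of all named targets and their median of 0.50. Gna13, which couples receptors to the cytoskeleton, stood at 16.4, 17.3, 18.5, 19.7 and 11.5 CPM against 1.52 and 2.24 CPM (log2 3.04). Gnas, which activates adenylyl cyclase, stood at 1229, 1352, 1396, 1461 and 1584 CPM in cultures 3 to 7, against 3828 and 3421 CPM in cultures 1 and 2 and 3039 to 3640 CPM across uncontrolled libraries (log2 -1.37). Of the other 7 subunits 5 were higher and 2, Gnb1 and Gnai3, overlapped between the sets. In the list 6 of the 8 targets have a length that is a multiple of 3, Gnas not among them. Named targets of such a length between 800 and 2000 nt were higher in 48.2%, with a median of 1.28. Gnai3 (shared reads) had counts only in cultures 3 to 6, so it could pass the filter only through these. At the cell surface, Adam17, the protease that sheds growth factors and TNF, stood at 71.5, 77.2, 82.5, 79.9 and 65.8 CPM against 18.2 and 16.6 CPM. Icam1, an adhesion molecule for leukocytes, stood at 504, 359, 298, 316 and 324 CPM against 133 and 159.8 CPM, and uncontrolled library 4 reached 172 CPM.

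No gene listed for sterol and fatty acid synthesis or for glycolysis and glucose uptake was lower by the split rule. Since 12.0% of all named targets were lower, nothing is read from this over 9 and 5 tested genes. Acaca, the rate-limiting enzyme of fatty acid synthesis, stood at 133, 174, 151, 176 and 102 CPM in cultures 3 to 7, against 26.9 and 35.3 CPM in cultures 1 and 2 and 24.9 to 43.01 CPM across uncontrolled libraries (log2 2.22). Srebf2, the transcription factor that controls cholesterol synthesis, stood at 169, 257, 229.9, 262 and 240.2 CPM against 82.6 and 71.2 CPM. Of 9 tested sterol and fatty acid genes 3 were higher, these among them, a share (33.3%) below the 37.8% of all named targets, and the median difference was 0.73 against 0.50. Insig1, which holds the sterol sensors in the ER, overlapped between the sets. Of 5 tested genes of glycolysis and glucose uptake 2 were higher (40%), near the 37.8% of all named targets. Of these 2, Ldha (shared reads) had no count in cultures 1 and 2. Slc2a1, the glucose transporter GLUT1, stood at 41.2, 39.9, 52.6, 44.9 and 40.7 CPM against 13.5 and 15.1 CPM, while Gapdh (shared reads) was apart by less than 2-fold in the other direction (-0.41).

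The lists of genome maintenance and nucleotide supply held no gene that was lower by the split rule, where 12.0% of all named targets were. Of 11 DNA repair genes 7 were higher (63.6%, median 1.29), and of 8 genes of nucleotide and folate metabolism 5 were higher (62.5%, median 1.10). Over all named targets these values were 37.8% and 0.50. A length divisible by 3 belonged to 5 of the 11 and 5 of the 8. Named targets of such a length between 800 and 2000 nt were higher in 48.2%, with a median of 1.28. Of the 11 repair genes, 1 had no count in cultures 1 and 2. Ercc4, the nuclease subunit that cuts 5′ of bulky lesions, stood at 13.8, 14.1, 13.8, 15.5 and 10.7 CPM against 1.43 and 1.75 CPM. Parp1, which senses strand breaks, stood at 208, 212, 206, 197 and 196 CPM against 71.3 and 79.9 CPM, and no uncontrolled library exceeded 73.9 CPM. Adss2, an enzyme of AMP synthesis, stood at 117, 127, 142, 119 and 108 CPM against 25.8 and 26.6 CPM. Dicer1, the ribonuclease that makes microRNAs, had shared reads, 2 counts in cultures 1 and 2 together, and 74.6, 64.6, 49.4, 53.9 and 49.6 CPM in cultures 3 to 7. Smu1, a splicing factor with shared reads, had 4 counts in cultures 1 and 2 and 26.02, 26.6, 28.3, 22.7 and 23.9 CPM in cultures 3 to 7.

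Ribosomal protein genes, whose products build the translation machinery, lie on short targets. Of 9 tested, 3 were lower (33.3%) and none higher, with a median difference of -0.85. Among all targets 38.05% of those of 500 to 800 nt and 47.1% of shorter ones were lower, so the share was no larger than that of short targets. Set against targets of like length, the median was 0.0029. Rpl13 and Fau, both with shared reads, differed by -2.14 and -3.75, and by -1.32 and -2.88 from targets of like length. Rps4x, at 888 nt, differed by 0.21. Ndufa1, a small subunit of respiratory complex I on a target of 402 nt, stood at 13.1, 15.98, 17.1, 15.3 and 21.1 CPM against 78.4 and 76.4 CPM. Ribosomal protein genes have many processed copies, so their counts are uncertain.

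Among the other named genes, Vgf, a secreted neuropeptide precursor, stood at 1.78, 2.31, 4.99, 2.41 and 2.9 CPM against 9.64 and 12.4 CPM. The drug efflux pump Abcb1 (shared reads) overlapped between the sets (difference 0.19), whereas its close paralog Abcb1b stood at 1.02, 0, 0, 0 and 0.627 CPM against 3.12 and 2.82 CPM. These 2 share reads with each other or with like transcripts, so the division between them is uncertain. Ahr, the receptor for aromatic compounds (shared reads), stood at 18.2, 27.6, 20.9, 25.5 and 16.8 CPM against 3.39 and 3.41 CPM. The inserted vector stood at 1449 to 1866 CPM in cultures 3 to 7 and at 2218 and 2010 CPM in cultures 1 and 2. Per length, as the deposited TPM values, it stood at 242 to 308 in cultures 3 to 7 and at 251 and 246 in cultures 1 and 2, so that the sets overlapped on that scale.

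Whether the targets that set the 2 groups of cultures apart also differed elsewhere was examined in paradoxical (n = 7) against uncontrolled libraries (n = 4), which include none of the negative feedback cultures. The first component that gave the sets was computed with these libraries too, so the comparison is separate in its libraries but not in the choice of axis. By edgeR's quasi-likelihood test with Benjamini-Hochberg adjustment, 2869 of 22108 targets (13.0%) were called higher and 2087 (9.44%) lower in paradoxical libraries at an adjusted p under 0.05. Of the 4474 tested targets that were higher in cultures 3 to 7, 1727 (38.6%) were called higher and 2 lower, with a median log2 fold change of 1.08. Of the 4912 that were lower in cultures 3 to 7, 1640 (33.4%) were called lower and 11 higher, with a median of -0.91. Among the 12722 targets that did not split, 8.89% were called higher and 3.50% lower. For the named genes, 65 of 96 higher ones were called higher and none lower, and 13 of 34 lower ones were called lower and none higher. The share called among all named targets was not computed, so nothing is read from these counts.

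These shares depended on the model. Without uncontrolled library 1 or 2 the targets called higher fell to 1821 and 1818, and those called lower to 1318 and 1285. With the share of short targets as a covariate, 11.2% of the higher targets were called higher, against 4.93% of all targets, and 5.15% of the lower ones were called lower, against 1.93% of all.

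**Figure D5:**
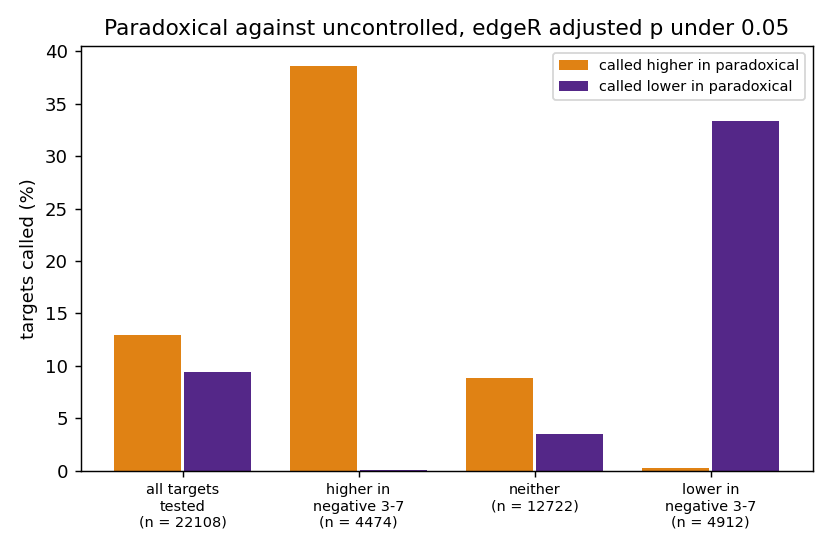
Percent of targets (vertical axis, from 0) called higher or lower in 7 paradoxical against 4 uncontrolled libraries by edgeR at an adjusted p under 0.05, for all 22108 targets tested and by their class in the negative feedback cultures. Targets higher in cultures 3 to 7 were called higher in 38.6% and those lower in 33.4% called lower, against 13.0 and 9.44% of all targets.

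By the same edgeR test, 8 of 9 reported genes among the 10 lowest with whole counts were called lower in paradoxical libraries. Over all targets 9.44% were called lower and 13.0% higher. These genes are extremes of the split, and the share called among all named targets was not computed, so nothing is read from their count. The log2 fold change was -1.996 ± 0.30 (SE, adjusted p = 0.0014) for Hspa5, whose 7 paradoxical libraries stood at 1071 to 2802 CPM with a median of 1903, so all lay below the lowest uncontrolled library. It was -1.96 ± 0.21 (SE, adjusted p = 0.000269) for Selenos, -1.75 ± 0.28 (SE, adjusted p = 0.00192) for Creld2 and -0.87 ± 0.13 (SE, adjusted p = 0.00111) for Bax. The paradoxical libraries of these genes also lay below every uncontrolled one, and those of Hspa5 overlapped with cultures 3 to 7. The value of -1.06 ± 0.62 (SE, adjusted p = 0.255) for Vgf did not pass. Of the 10 highest, 9 were called higher, a count with the same limit. The log2 fold change was 1.89 ± 0.27 (SE, adjusted p = 0.00105) for Glg1, 2.24 ± 0.32 (SE, adjusted p = 0.000989) for Sdc1, 2.12 ± 0.47 (SE, adjusted p = 0.00932) for Cdc25a and 2.34 ± 0.57 (SE, adjusted p = 0.0138) for Casp2. In Glg1 and Edem1 the paradoxical libraries stood far below cultures 3 to 7, at 18.2 to 35.8 CPM with a median of 28.7 and at 2.74 to 7.26 CPM with a median of 4.89. At 1.24 ± 0.41 (SE, adjusted p = 0.0498), Edem1 passed in this fit and in 2 of 18 alternative settings. At 2.17 ± 0.71 (SE, adjusted p = 0.0503), Ugcg did not pass. With the share of short targets as a covariate, 1 of the 10 highest and 2 of the 9 reported among the lowest were called, and 9 of each kept their direction. With all 4 groups in the fit 1 of the 10 highest and 1 of these 9 lowest were called, and with a replicate block 1 and none. Without uncontrolled library 1, 2 or 3, the calls among the 10 highest were 4, 5 and 5.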

How the data were processed

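The authors used Trim Galore and kallisto, per the submitters' processing notes, which give no versions or settings. The genome build is not given in the sources used here, nor is the index. Per the file headers, each deposited file holds an estimated count, a TPM value, a length and an effective length for 46718 targets. The estimated count that the authors deposited need not be whole, since kallisto divides a read among similar targets, and counts were rounded before testing. The deposited TPM divides counts by effective length, and each target had 1 effective length across libraries. Symbols came from a RefSeq gene table of assembly CriGri-PICRH-1.0, used for names only. It matched 527 targets, 333 of them coding under 329 symbols. Predicted transcripts could not be named. No coordinates or sequences are printed.

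filterByExpr over 19 libraries kept 28555 targets, 5933 of them whole (within 1e-06 in every library). Scaling was TMM, with log2 CPM at a prior count of 2. Like-length values subtract a running median over 501 targets. Paradoxical and uncontrolled libraries were tested with edgeR 4.0.16 in R 4.3.3 on those 11 libraries alone, and SE is the absolute log2 fold change over the square root of F. limma 3.58.1 and DESeq2 1.42.0 were alternatives. The steps were tested on simulated data. Samples were grouped by the culture condition label, except the sets within negative feedback. Members, lists and rule were chosen with earlier results of these data known, and 11 lists were assembled after the matched names had been seen. Named genes are the 10 highest and 10 lowest whole-count genes, 4 and 4 with shared reads, up to 3 per list, the insert and 5 fixed genes, and others were chosen after their values were seen. A few genes taken by this rule go unreported. Floors cover counting error only. No 2 libraries had identical counts.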

Additional observations from a re-analysis of the deposited data

Results flagged for a closer look

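Within groups of 4 to 10 libraries, 146 sets of values were checked for a library whose gap to the next exceeded Dixon's 95% limit, and 11 had one, where chance gives about 1 in 20. On the first component, culture 7 scored 158.4 and the next of cultures 3 to 7 scored 204.9. Culture 7 was also highest for Rpl13 (378.3 CPM, next 314.8). Culture 3 was highest for Kif23 (146.8 CPM, next 104.8) and lowest for P4hb (1020 CPM, next 1085). Culture 5 was lowest for Calr (589.1 CPM, next 649.8).

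Among the uncontrolled libraries, library 4 was highest for Top2a (464.1 CPM, next 300.6), Xiap (2.54 CPM, next 0.554) and B4galt5 (2.70 CPM, next 0.576). Library 1 was highest for Selenom (110.9 CPM, next 76.7), library 2 for Ndufa1 (77.8 CPM, next 69.9) and library 3 for Hspa8 (1875 CPM, next 1048). In each of these genes the high uncontrolled library still lay on the same side of cultures 3 to 7 as the other 3.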

How the results depend on the processing

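Scaling, filter, prior count and like-length correction kept both counts of split targets within 1.5 times. They were 3050 higher and 2708 lower at a difference of at least 2, 992 and 1201 with whole counts only, 6381 and 2576 with log2 TPM, and 3812 and 2879 on targets of at least 2000 nt, a setting chosen after seeing the data. Log2 TPM moved the median of all targets from 0.04 to 0.23. Leaving out each culture gave 5336 to 6225 and 5620 to 6780. The mean short-target share of cultures 1 and 2 was 2.11 times that of cultures 3 to 7, and 2.63 and 1.72 times with limits of 500 and 1200 nt. Of 65 named differences, those of Abcb1, Calr, P4hb and the insert took both signs over the alternatives, and the other 61 kept theirs.

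In paradoxical against uncontrolled libraries, replicate numbers did not pair the samples (correlations of deviations -0.026 to 0.041, and no library correlated best with its own number). With a replicate block, 233 targets were called higher and 97 lower, and 4.63% of the higher and 1.83% of the lower split targets were called their own way. With all 4 groups in the fit the values were 1408, 427, 13.9% and 4.46%. With the short-target covariate they were 1091, 426, 11.2% and 5.15%, and Ugcg (-0.068, adjusted p = 0.981, range 0.00591 to 0.981) turned direction. On targets of at least 2000 nt, 1760 and 1090 were called. DESeq2 called 3886 and 3015, limma-voom 2654 and 3037, and edgeR with library size alone 2329 and 2528. Leaving out each library gave 1818 to 2849 higher and 1285 to 2365 lower, and 26.2 to 39.7% and 20.9 to 36.6% of the split targets, with the lowest values without uncontrolled library 2. Without uncontrolled library 1 the share of lower targets was 21.6%. Which cause lay behind these shifts was not tested. Counts at or near 0 in cultures 1 and 2 limit the folds of Dicer1, Smu1, Slc35a3 and Mbtps2.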

Other observations

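Genes of innate immunity and antigen presentation, in a list of 8 put together after the names were seen, had a median difference of -0.86 between cultures 3 to 7 and cultures 1 and 2, with 3 lower (37.5%) and 1 higher (12.5%). Of all named targets 12.0% were lower and 37.8% higher, with a median of 0.50. Cxcl1, a chemokine that attracts neutrophils, stood at 27.6, 23.0, 15.9, 19.7 and 27.1 CPM in cultures 3 to 7, against 41.3 and 57.9 CPM in cultures 1 and 2, and its uncontrolled libraries, at 9.05 to 99.9 CPM, spanned both sets. Rarres2, the precursor of the chemoattractant chemerin, had shared reads and stood at 18.1, 15.7, 7.94, 13.0 and 16.9 CPM against 41.9 and 61.9 CPM. Tlr4, the receptor for bacterial lipopolysaccharide, was the higher one (shared reads, log2 2.57). Against targets of like length the median of the list was -0.51.

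Among unnamed targets with whole counts, those with overlapping sets, a mean log2 CPM under 1 or few counts in either set were left out. Of the rest, those with the 2 lowest and 2 highest differences were listed. Of the lowest, a predicted noncoding transcript of 751 nt stood at 23.1, 49.2, 44.2, 48.8 and 65.7 CPM in cultures 3 to 7, against 609 and 775 CPM in cultures 1 and 2 and 484 to 706 CPM across uncontrolled libraries. It stood at 40.1 to 160.6 CPM in the 7 paradoxical libraries and at 248.6 CPM in the parental library. Of the highest, a predicted coding transcript of 2534 nt stood at 54.2, 62.4, 62.0, 60.4 and 46.9 CPM in cultures 3 to 7, against 1.87 and 1.75 CPM in cultures 1 and 2. Its paradoxical libraries stood between, at 9.30 to 21.7 CPM, and its uncontrolled ones at 1.71 to 2.71 CPM. What these transcripts encode was not analysed here.

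The counts of other lists stand beside 37.8% of all named targets higher and 12.0% lower. Of 8 tested genes of redox defence and the pentose phosphate pathway, 1 was higher (Gpx1) and 1 lower, Gstp1, a glutathione transferase, which stood at 185, 180.5, 136, 172 and 214 CPM against 396 and 412 CPM (list median -0.47). Of 4 lysosomal genes 1 was higher, Lamp2, a lysosomal membrane protein (log2 1.28). None of 4 chromatin silencing genes and none of 2 translation factors was split. Of 6 peroxisome biogenesis genes, listed after the names were seen, 1 was higher and 2 were lower (median -0.42).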
